A study of Mus musculus with 12 samples.

Results

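Interferon regulatory factors (IRFs) are transcription factors that share an N-terminal DNA-binding domain and bind GAAA-containing elements in interferon genes and interferon-stimulated genes. IRF3 and IRF7 are phosphorylated after a sensor has met viral RNA or DNA, and then switch on interferon genes. IRF5 is activated through Toll-like receptors and their adaptor MyD88. IRF9 acts at the interferon-stimulated response element (ISRE) once interferon has bound its receptor. IRF1 and IRF8 are themselves classical targets of interferon-gamma, which acts on the gamma-activated sequence (GAS), and IRF2 competes with IRF1 for the same sites. In the gut epithelium this system is best known for antiviral defence and for the response to type III interferon.

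Described here are 7 genes of this family, Irf1, Irf2, Irf3, Irf5, Irf7, Irf8 and Irf9, out of 48526 gene rows counted. They were taken as a named list of family genes, chosen with earlier results of these data known. Counts of members called, set beside the share of all genes, are therefore a description. All 7 had enough counts to be tested in every comparison. The libraries came from 4 female mice, 3 months old, 2 of them controls and 2 with a double knockout (DKO) of the acetyltransferase genes Kat2a and Kat2b. The DKO was induced by intraperitoneal tamoxifen, 100 mg/kg daily for 4 days, and controls received the ethanol and corn oil vehicle alone, so genotype and tamoxifen exposure cannot be told apart. Epithelial cells were released with EDTA 2 days after the last injection. The extraction protocol gives the proximal part of the small intestine as their source, while the sample titles speak of whole intestine. The Cre driver and the floxed alleles are not given in the sources used here. Each mouse gave 3 libraries. The input library measured RNA before pulldown, and the other two measured RNA bound by J2 or by K1, a pair of monoclonal antibodies against double-stranded RNA.

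Gene-assigned counts were 10307281 to 11474107 in control input, 11224786 to 11247141 in DKO input, 13308021 to 16139531 in control pulldowns and 2220291 to 5826361 in DKO pulldowns. The 10 most abundant genes held 24.7% to 33.6% of the counts in DKO pulldowns and 6.57% to 7.67% in control pulldowns. Levels are given in CPM, the usual depth-scaled count, with scaling by the trimmed mean of M-values (TMM) over all 12 libraries. Kat2a read 17.7 and 16.4 CPM in the control inputs against 7.0 and 10.9 CPM in the DKO inputs. Kat2b read 28.6 and 24.7 CPM against 9.84 and 8.38 CPM, so both targeted genes were lower in both DKO animals. The 10 epithelial markers summed to 7676 to 8263 CPM in control input and 6728 to 8045 CPM in DKO input, and the label of an epithelial preparation matched these levels. Replicates were separate animals, 2 per group. A gene's own spread thus comes from few mice, and edgeR moderates it with the spread of all genes tested to give the p-values.

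The genes lie on 5 chromosomes of mouse assembly GRCm38 (mm10), annotated here with GENCODE M21. Irf1 (ENSMUSG00000018899.16) spans chr11:53770014-53778374 on the plus strand, and Irf9 (ENSMUSG00000002325.14) spans chr14:55603571-55610030 on the plus strand. Irf2 (ENSMUSG00000031627.9, chr8:46739732-46847458) and Irf8 (ENSMUSG00000041515.9, chr8:120736358-120756694) share a chromosome and the plus strand. Irf3 (ENSMUSG00000003184.15, chr7:44997648-45002848, plus strand) and Irf7 (ENSMUSG00000025498.15, chr7:141262706-141266481, minus strand) share another. Irf5 (ENSMUSG00000029771.12) spans chr6:29526625-29541871 on the plus strand. The counts were made without strand, so reads in exons shared with a gene on the opposite strand cannot be assigned. Irf9 and Rnf31 both lie on the plus strand, where strand would not separate shared reads either. Exon overlap reached 411 bp between Irf5 and Tnpo3, 135 bp between Irf1 and Gm17334, 123 bp between Irf9 and Rnf31, 88 bp between Irf3 and Bcl2l12, and 45 bp between Irf7 and Phrf1. Irf2 and Irf8 overlapped no counted gene.

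Promoter windows are shown for Irf1, Irf8 and Irf2 because these held all the ISRE-type and GAS-type letters found before the starts of the 7 genes. Each is the 250 bases before the RefSeq start on assembly GRCm38.p6, written 5′ to 3′ on the gene's own strand, with capitals marking the ISRE-type and GAS-type matches. The Irf1 window is chr11:53769764-53770013, the Irf8 window chr8:120736108-120736357 and the Irf2 window chr8:46739495-46739744, all on the plus strand.
Irf1: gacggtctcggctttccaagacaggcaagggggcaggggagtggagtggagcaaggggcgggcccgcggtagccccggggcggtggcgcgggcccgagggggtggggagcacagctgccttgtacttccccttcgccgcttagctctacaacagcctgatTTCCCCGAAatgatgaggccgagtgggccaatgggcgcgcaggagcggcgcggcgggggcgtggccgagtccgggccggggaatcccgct
Irf8: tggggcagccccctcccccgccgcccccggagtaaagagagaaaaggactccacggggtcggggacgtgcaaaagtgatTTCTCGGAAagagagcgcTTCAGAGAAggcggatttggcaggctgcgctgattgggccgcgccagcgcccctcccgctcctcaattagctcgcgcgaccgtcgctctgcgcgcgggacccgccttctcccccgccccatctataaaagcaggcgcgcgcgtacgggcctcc
Irf2: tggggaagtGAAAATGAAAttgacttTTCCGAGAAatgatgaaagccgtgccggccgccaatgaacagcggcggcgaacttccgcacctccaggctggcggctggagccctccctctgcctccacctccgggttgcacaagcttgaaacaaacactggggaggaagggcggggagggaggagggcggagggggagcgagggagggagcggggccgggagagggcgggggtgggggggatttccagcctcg

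The letters searched on both strands were GAAA, any 2 bases and GAAA again for the ISRE type, TTCNNNGAA for the GAS type, which reads the same on both strands, and AANNGAAA for the IRF core, which can lie inside the ISRE type. Irf1 held 1 GAS-type match, TTCCCCGAA, 90 to 82 bases before its start. Irf8 held 2, TTCTCGGAA at 171 to 163 bases and TTCAGAGAA at 153 to 145 bases. Irf2 held the ISRE-type match GAAAATGAAA at 241 to 232 bases, IRF core matches at 245 to 238 and 239 to 232 bases that overlap it in part or in full, and the GAS-type match TTCCGAGAA at 224 to 216 bases. Among all 32851 RefSeq windows of this length, 2.98% held the ISRE type, 7.02% the GAS type and 21.3% the IRF core. No match was found in the windows of Irf3, Irf5, Irf7 and Irf9, nor in the windows of the other starts of Irf1 and Irf8. This says only that these letters are not in those windows. The 7 genes matched 10 RefSeq windows, and GC content was 71.2% in the first Irf1 window and 54.4% in the Irf7 window against a median of 52.4% over all windows.

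**Figure D1:**
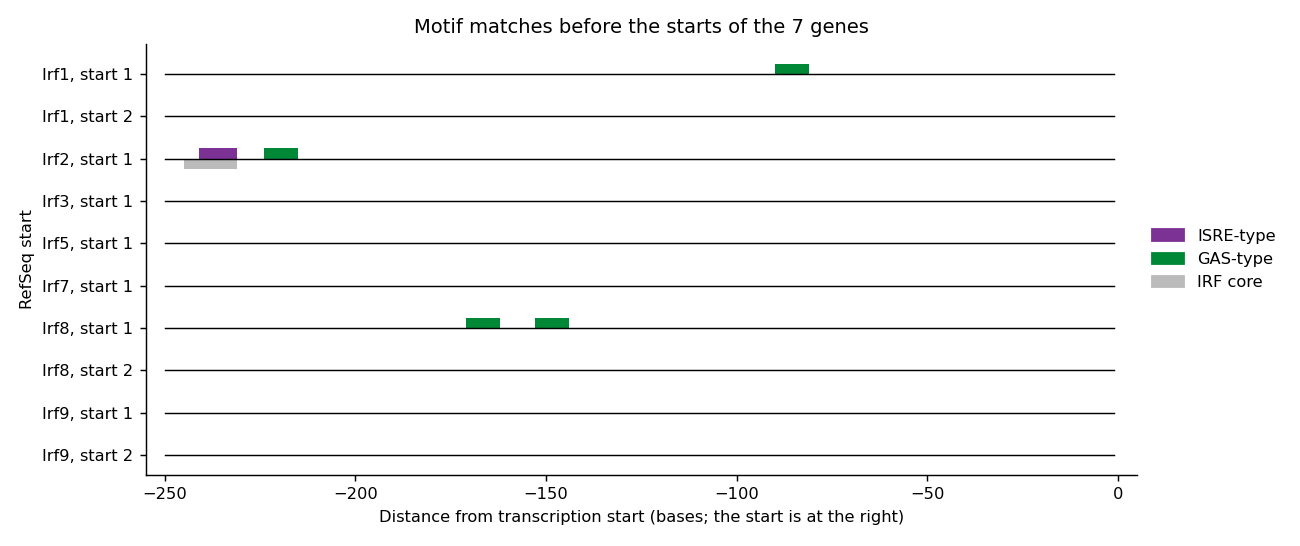
Positions of ISRE-type, GAS-type and IRF core matches in the 250 bases before each RefSeq start of the 7 genes. The x axis is the distance from the start in bases, and coloured bars are matches; they lie in 3 of the 10 windows, those of Irf1, Irf2 and Irf8.

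In input RNA, the comparison of DKO with control mice asks which of these genes changed in the epithelial preparation as a whole. Irf5, Irf7 and Irf9 rose in DKO mice, Irf1 and Irf8 fell, and Irf2 and Irf3 did not pass the test. These 5 of 7 genes stand against 35.9% of all 15088 genes tested in input, of which 18.8% were higher and 17.1% lower. The median log2 fold change of the 7 was 0.34, and that of all genes tested was 0.00. In bulk tissue, fewer cells of a type and less RNA per cell cannot be told apart.

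Irf7, the factor behind the amplified wave of type I interferon, read 95.1 and 75.4 CPM in the control inputs and 589 and 523 CPM in the DKO inputs. Every DKO library stood above every control library. The increase was 6.70-fold (log2 fold change 2.74, SE 0.17; edgeR quasi-likelihood adjusted p = 8.3e-05). Irf5, which serves Toll-like receptor signalling, had 13 and 10 counts in the control inputs and 259 and 143 in the DKO inputs. These are 1.03 and 0.72 CPM against 21.6 and 10.5 CPM, so Irf5 was close to undetected in control epithelium and both DKO values lay above it. The log2 change was 4.22 (SE 0.44; edgeR adjusted p = 5.4e-04), an 18.7-fold rise whose size rests on those low control counts. Irf3, which is present in the cytosol before infection, read 33.6 and 37.5 CPM in controls and 34.0 and 42.1 CPM in DKO mice. The groups overlapped and the log2 difference of 0.14 (SE 0.14) did not pass the test (edgeR adjusted p = 0.487).

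Irf9, which acts downstream of the interferon receptors, read 36.3 and 35.3 CPM in the control inputs and 97.3 and 90.7 CPM in the DKO inputs. Its replicates were the closest of the genes that rose. On the log2 scale it rose by 1.43 (SE 0.12; edgeR adjusted p = 2.42e-04), a 2.7-fold rise. Irf7 and Irf9 passed the test in all 10 alternative analyses of input RNA, and Irf5 in 9 of 10. Phrf1 and Rnf31, whose exons overlap those of Irf7 and Irf9, also rose in input, by log2 0.39 (edgeR adjusted p = 0.0336) and 0.73 (edgeR adjusted p = 0.0165). The part of Phrf1 and Rnf31 in the Irf7 and Irf9 values was not tested.

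Irf1, an activator of antiviral and antigen presentation genes, read 155 and 119 CPM in the control inputs and 80.3 and 75.3 CPM in the DKO inputs. Both DKO values were below both control values. The log2 value of DKO over control was -0.78 (SE 0.15; edgeR adjusted p = 0.00710), a 1.71-fold lower level. Irf8, which directs dendritic cell, monocyte and B cell development, read 159 and 108 CPM in controls and 82.4 and 80.0 CPM in DKO mice. The groups did not overlap, with DKO over control at log2 -0.68 (SE 0.19; edgeR adjusted p = 0.0261). Control animal 1 had more Irf1 and more Irf8 than control animal 2 in all 3 kinds of library. Without control animal 1 the Irf8 value was -0.38 (edgeR adjusted p = 0.218) and the Irf1 value -0.58 (edgeR adjusted p = 0.0417). Leaving out DKO animal 1 or 2 also ended the Irf8 call, at edgeR adjusted p = 0.0669 and 0.0665. Irf2, a repressor at IRF1 sites, read 81.5 and 81.7 CPM in controls and 117 and 83.6 CPM in DKO mice. Its log2 difference of 0.34 (SE 0.17; edgeR adjusted p = 0.158) did not pass, and the DKO animals differed from each other. Without DKO animal 2 it passed the test at 0.55 (edgeR adjusted p = 0.00867).

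**Figure D2:**
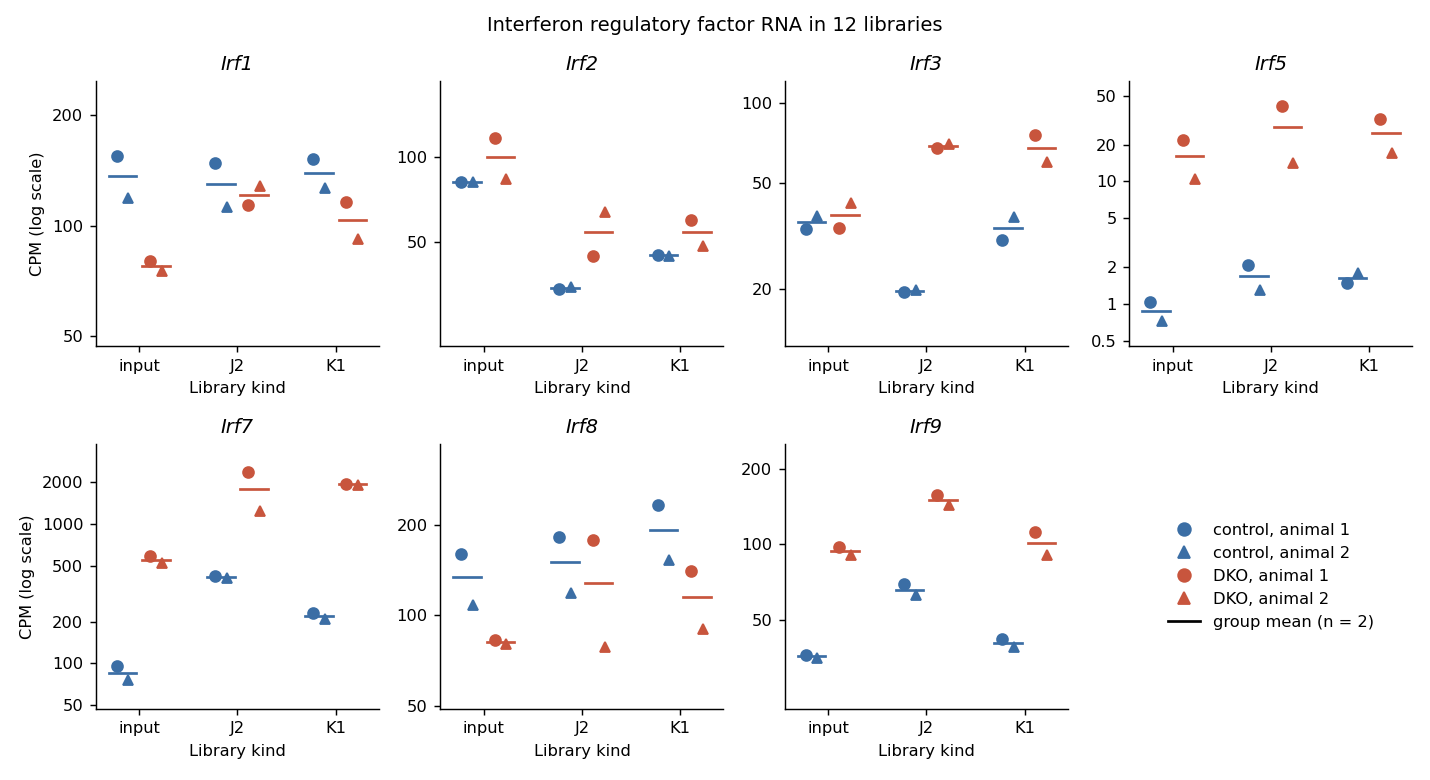
CPM of each of the 7 genes in every library, on log scales that differ between panels. Circles are animal 1, triangles animal 2, colours the genotype and short lines the mean of 2; Irf5, Irf7 and Irf9 are higher in the DKO libraries of all 3 kinds.

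Markers of immune cells were measured beside these genes, because Irf8, Irf5 and Irf7 are abundant in such cells. The 12 T cell and intraepithelial lymphocyte markers summed to 151 to 155 CPM in control input and 96.3 to 104 CPM in DKO input. In that list 6 of 12 genes fell in DKO input (edgeR), where 17.1% of all genes tested fell and 18.8% rose. Cd3g was at log2 -1.12, Cd3e at -0.97 and Nkg7 at -0.79, and fewer of the 12 fell without control animal 2. This decrease moved with Irf1 and Irf8, and its part in their values was not tested. The 16 myeloid and dendritic markers summed to 133 to 145 CPM in control input and 112 to 161 CPM in DKO input. Of these, 7 could be tested, and 2 rose and 1 fell, where 35.9% of all genes tested were called. Csf1r, the receptor of macrophage growth factor, rose by 2.74 and Cd68 by 1.01 on the log2 scale, while Itgax fell by 0.85. Fewer of the 7 were called without either control animal. The dendritic cell markers Xcr1, Clec9a and Batf3 were at or under 3 counts in both groups. Other genes of the same list were not: Zbtb46 was at log2 0.19 without a call (edgeR adjusted p = 0.727). Flt3 and Siglech were above this floor in both groups but too low to test. The 8 B and plasma cell markers summed to 2.67 to 2.79 CPM in control input and 3.68 to 5.09 CPM in DKO input. Mzb1, a plasma cell gene, was at 0 in every input library. Jchain, the only 1 of the 8 that could be tested, was at log2 0.95 without a call (edgeR adjusted p = 0.0778). Among the 10 epithelial markers, Krt18 rose by 1.32 and Fabp2 fell by 0.72 on the log2 scale. How much of each member came from immune cells in the preparation was not tested.

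Dividing by exon length allows levels of different genes to be set side by side. In control input the order in CPM per kilobase of annotated exon was Irf1 at 34.4 ± 6.35, Irf7 at 22.6 ± 3.69, Irf8 at 18.9 ± 5.14, Irf2 at 11 ± 0.0237, Irf3 at 10.3 ± 0.816, Irf9 at 6.65 ± 0.127 and Irf5 at 0.302 ± 0.0764 (SD, n = 2). Irf7 and Irf8 overlapped there. In DKO input Irf7 led at 147 ± 12.3, followed by Irf1 at 19.6 ± 0.894, Irf9 at 17.5 ± 0.866, Irf2 at 13.6 ± 3.19, Irf8 at 11.5 ± 0.234, Irf3 at 11.1 ± 1.66 and Irf5 at 5.53 ± 2.7 CPM per kilobase (SD, n = 2). Irf2 overlapped Irf8, and Irf8 overlapped Irf3. So Irf7 was the most abundant member in DKO input and Irf5 the least abundant in both groups. The same held with the length of the longest coding transcript, a choice made after seeing the data, but in control input Irf8 then stood above Irf7 and in DKO input Irf2 above Irf1.

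The J2 libraries hold RNA bound by an antibody that prefers long double-stranded RNA, and there all 7 genes had larger standard errors than in input. Irf3 and Irf5 were higher in DKO than in control J2 libraries, and the other 5 genes did not pass the test, against 12.2% of 13181 genes tested in J2, of which 6.02% were higher and 6.16% lower. Irf3 read 19.5 and 19.7 CPM in control J2 and 67.8 and 70.0 CPM in DKO J2. The replicates were nearly equal within each genotype and the groups lay far apart. This is a log2 value of 1.88 (SE 0.31; edgeR adjusted p = 0.0316), or 3.67-fold. Irf5 read 2.06 and 1.29 CPM in control J2 against 41.3 and 14.2 CPM in DKO J2, a log2 fold change of 4.06 (SE 0.65; edgeR adjusted p = 0.0307). Irf7 read 426 and 409 CPM in controls and 2374 and 1237 CPM in DKO mice. The groups did not overlap, but the DKO pair differed widely and the log2 difference of 2.15 (SE 0.67) missed the threshold (edgeR adjusted p = 0.0859), while DESeq2 gave an adjusted p of 0.00195. Irf9 read 69.4 and 62.7 CPM against 158 and 143 CPM, at log2 1.25 (SE 0.33; edgeR adjusted p = 0.0651). Irf1, Irf2 and Irf8 had log2 differences of -0.04, 0.74 and -0.20 with edgeR adjusted p of 0.950, 0.203 and 0.794. Leaving out an animal leaves 1 mouse in a group, and calls over all genes then swung widely, as did those of the members. With each animal left out in turn, log2 values ran from 1.81 to 1.91 for Irf3 and from 3.13 to 4.65 for Irf5. Neither gene kept its call in every such fit.

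K1, the other antibody against double-stranded RNA, allowed the same contrast in a separate pulldown from the same animals. Irf3, Irf5, Irf7 and Irf9 were higher in DKO than in control K1 libraries. These 4 of 7 stand against 27.1% of 12888 genes tested in K1, of which 13.2% were higher and 13.9% lower. Irf7 read 231 and 210 CPM in control K1 and 1961 and 1918 CPM in DKO K1, with replicates close together. On the log2 scale Irf7 was 3.33 higher (SE 0.40; edgeR adjusted p = 0.00289), which is 10.1-fold. Irf5 read 1.48 and 1.79 CPM against 32.5 and 17.2 CPM, at log2 4.11 (SE 0.42; edgeR adjusted p = 0.00201). Irf9 read 42.0 and 39.0 CPM against 112 and 91.0 CPM, at log2 1.51 (SE 0.24; edgeR adjusted p = 0.00659). These 3 genes were also higher in DKO input. Irf3 did not pass there. In K1 it read 30.5 and 37.3 CPM in control K1 and 75.8 and 60.2 CPM in DKO K1, at log2 1.19 (SE 0.25; edgeR adjusted p = 0.0155). Irf1 (log2 -0.24, edgeR adjusted p = 0.539), Irf2 (0.46, 0.195) and Irf8 (-0.56, 0.24) did not pass the test. With each animal left out in turn, log2 values ran from 1.048 to 1.32 for Irf3, 3.217 to 3.397 for Irf7 and 1.415 to 1.624 for Irf9. Of the 4 genes only Irf5 kept its call in every such fit. Calls over all genes moved widely in these fits too. Markers of macrophages and dendritic cells moved with these genes in K1, where 5 of 9 tested were higher in DKO mice and the median log2 value of the 9 was 1.87. Those were Csf1r (3.62), Adgre1 (3.23), C1qb (2.78), Cd68 (2.62) and Itgax (1.74). All 16 markers together summed to 71.1 and 96.7 CPM in control K1 and 121 and 73.8 CPM in DKO K1, which overlap, and Xcr1 was at 0 in all 4 libraries. Their part in the K1 values of the 7 genes was not tested.

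**Figure D3:**
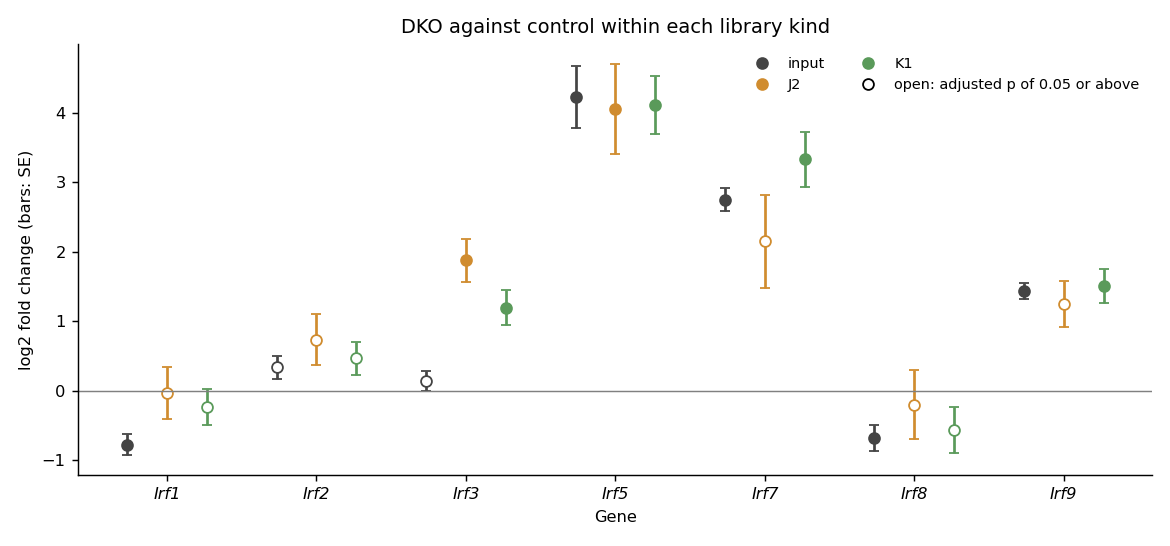
log2 fold change of DKO over control for the 7 genes in input, J2 and K1 libraries, with bars of 1 SE; filled points passed the test. Irf5 is near 4 in all 3 kinds of library, while Irf3 is at 0.14 in input, 1.88 in J2 and 1.19 in K1.

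Setting each pulldown against input compares a gene's share of the pulldown library with its share of input, called recovery here. The 12 libraries hold no pulldown with a control antibody, so binding and background carry-over cannot be told apart. The J2 and the K1 comparisons share the input libraries. In control mice J2 enriched Irf7 and Irf9 and depleted Irf2 and Irf3, which is 4 of 7 against 29.8% of 15923 genes tested, 15.2% higher and 14.6% lower. Irf7 was 2.30 higher in J2 than in input on the log2 scale (SE 0.46; edgeR adjusted p = 0.00917), and the values in the same animal were 2.16 and 2.44. Irf9 was 0.89 higher (SE 0.23; edgeR adjusted p = 0.0239), with 0.93 and 0.83 in the animals. Irf2 was at -1.25 (SE 0.28; edgeR adjusted p = 0.0140), with -1.26 and -1.24 in the animals. Irf3 was at -0.85 (SE 0.22; edgeR adjusted p = 0.0215), with -0.78 and -0.92. Irf1, Irf5 and Irf8 were at -0.07, 0.95 and 0.17 and did not pass. Leaving out either control animal ended these calls, and calls over all genes moved widely in such fits too. With each animal left out in turn, the values ran from 2.171 to 2.455 for Irf7 and 0.764 to 0.962 for Irf9. They ran from -1.373 to -1.226 for Irf2 and -0.979 to -0.758 for Irf3.

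K1 in control mice enriched Irf7 and depleted Irf2, which is 2 of 7 against 39.8% of 15908 genes tested, 19.7% higher and 20.1% lower. Irf7 was 1.29 higher in K1 than in input on the log2 scale (SE 0.27; edgeR adjusted p = 0.00445), with 1.28 and 1.48 in the animals. Irf2 was at -0.95 (SE 0.21; edgeR adjusted p = 0.00602), with -0.86 and -0.87. The other 5 genes lay between -0.15 for Irf3 and 0.81 for Irf5. Both calls were lost when either control animal was left out, and calls over all genes moved widely in such fits too. With each animal left out in turn, the values ran from 1.228 to 1.389 for Irf7 and -0.967 to -0.913 for Irf2.

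In DKO mice J2 enriched Irf3 and Irf7 only among the 7, against 25.7% of all genes, 12.2% higher and 13.4% lower. Irf3 was at 0.88 on the log2 scale (SE 0.22; edgeR adjusted p = 0.0226), with 0.99 and 0.73 in the animals, and Irf7 at 1.73 (SE 0.45; edgeR adjusted p = 0.0269), with 2.01 and 1.24. Irf9 at 0.71 and Irf2 at -0.86 missed the threshold narrowly (edgeR adjusted p = 0.0564 and 0.0549). Irf1, Irf5 and Irf8 stood at 0.66, 0.82 and 0.68. Both calls were lost when either control animal was left out, and calls over all genes moved widely with an animal left out. The values ran from 0.623 to 1.022 for Irf3 and 1.132 to 2.039 for Irf7 with each animal left out in turn. K1 in DKO mice enriched Irf3 and Irf7 and depleted Irf2, against 35.6% of all genes, 14.6% higher and 21% lower. Irf7 was at 1.72 (SE 0.28; edgeR adjusted p = 0.00158), Irf3 at 0.76 (SE 0.21; edgeR adjusted p = 0.0195) and Irf2 at -0.96 (SE 0.22; edgeR adjusted p = 0.00825). Irf7 kept its call in all 10 alternatives. Irf3 in K1 was at 0.36 without DKO animal 1, and its call was lost there and without either control animal. The Irf2 call was also lost without either control animal.

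**Figure D4:**
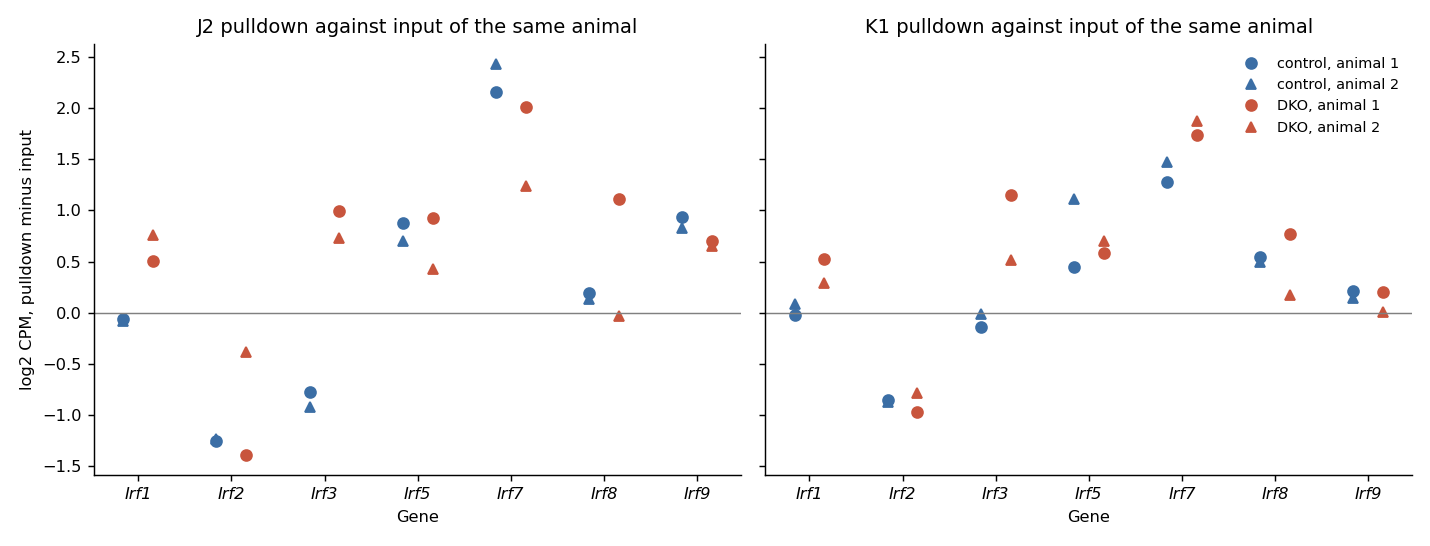
log2 ratio of pulldown over input in the same animal, for J2 and K1, per gene; each point is 1 animal. Irf3 lies below 0 in both controls and above 0 in both DKO animals, and Irf7 lies above 1 in all 4 animals with both antibodies.

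The series' design asks for differential enrichment, that is, whether the ratio of pulldown to input differed between genotypes. For J2 this difference passed the test for Irf3 alone among the 7, against 2.71% of all genes, of which 0.772% were higher and 1.94% lower in DKO. Irf3 went from below input in both control animals (-0.78 and -0.92) to above input in both DKO animals (0.99 and 0.73), a difference of 1.74 on the log2 scale (SE 0.31; edgeR adjusted p = 0.0385). With the animal as a block the difference was again 1.74, with an edgeR adjusted p of 0.0734. It was 1.77 without control animal 1 and 1.49 without control animal 2, and the call was lost in both. The other differences in J2 ranged from -0.57 for Irf7 to 0.73 for Irf1. Irf1 was at -0.07 and -0.08 in the control animals and 0.50 and 0.76 in the DKO animals, groups that did not overlap, with an edgeR adjusted p of 0.278. Without DKO animal 1, Irf2 was at 0.87 and Irf7 at -1.04. Calls over all genes moved widely between fits with an animal left out.

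For K1 none of the 7 differences passed in edgeR, where 5.47% of all genes did, 1.37% higher and 4.1% lower in DKO. Only Irf3 had an unadjusted p under 0.05, and DESeq2 also called Irf3 and no other member. Irf3 was at -0.14 and -0.01 in the control animals and at 1.15 and 0.51 in the DKO animals. The difference was 0.91 on the log2 scale (SE 0.29; edgeR adjusted p = 0.0992), with the animal as a block it had an edgeR adjusted p of 0.0510, and DESeq2 gave 1.04 with an adjusted p of 0.0321. Without DKO animal 2 it was 1.21. The other 6 ranged from -0.22 for Irf5 to 0.43 for Irf7, where the median over all genes was -0.20. Irf5, Irf7 and Irf9 were thus higher in DKO mice in input and in K1, while no change in their recovery relative to input was detected.

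Several measures moved with the Irf3 result. The DKO J2 libraries held 2691285 and 5826361 gene-assigned counts, far fewer than control J2. Before scaling, Irf3 counts were 284 and 244 in the control J2 libraries and 266 and 227 in the DKO ones, so raw counts were alike and the difference lies in its share of the library. When every library was thinned to the same total, the J2 difference of Irf3 was 1.52 (edgeR adjusted p = 0.221), and without TMM it was 1.80 (edgeR adjusted p = 0.0791). Bcl2l12, whose exons overlap those of Irf3 on the opposite strand, fell in DKO input by 1.45 on the log2 scale (edgeR adjusted p = 0.00758). It was higher than input in DKO J2, at 2.53 (edgeR adjusted p = 0.0338), and in DKO K1, at 2.76 (edgeR adjusted p = 0.00297). Its counts were 8 and 42 in DKO J2. The part of depth, composition and the overlapping gene in the Irf3 value was not tested.

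Outside the 7, Irf4, known from lymphocytes, had 1 to 11 counts per library and was too low to test.

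The genes that feed into and follow these factors were taken from lists of the pathway, chosen with earlier results of these data known. Counts from these lists in input stand beside 18.8% higher and 17.1% lower among all genes tested. Among 8 sensors 4 could be tested in input, and Ifih1 (log2 2.00), Rigi (1.75), which both detect double-stranded RNA, and Tlr3 (0.95) rose in DKO mice, while Cgas, a DNA sensor, was at -0.38 without a call. Of 14 adaptors and kinases, 7 rose and 1 fell, with a median of 0.36. The DNA-sensing adaptor Sting1 (1.87), Myd88 (1.36) and the ligase Traf6 (0.97) rose most, and Mavs, the adaptor of the RNA sensors, fell by 0.98 (edgeR adjusted p = 0.00968). The IRF3 kinases Tbk1 (0.72) and Ikbke (0.77) were among those that rose. Of the 10 interferon genes only Ifnk could be tested, and it fell by 1.12 (edgeR adjusted p = 0.0438), a call lost without control animal 1, control animal 2 or DKO animal 1. The 10 interferon genes together had 29 to 35 counts in the control inputs and 11 to 20 in the DKO inputs, and Ifnb1, Ifna1 and Ifna4 had 0 in all 4. RNA of these 10 interferon genes was therefore not detectable as higher in DKO input at this depth, and 9 of them could not be tested.

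Downstream, 7 of 12 receptors, kinases and STATs rose in DKO input (edgeR), with a median of 0.56, and fewer rose without either control animal. Over all genes tested in input, 18.8% rose and 17.1% fell. Stat2 (2.18), a signal transducer of type I and III interferon, and Ifnar2 (1.09), a type I interferon receptor chain, rose most. Of 22 target genes of IRFs, 15 rose and 3 fell, with a median of 3.07. The antiviral genes Oas2 (6.28), Ifit2 (6.25) and Ifit3 (4.75) rose most. Those that fell were Ciita (-3.85), the master activator of MHC class II genes, the cytokine gene Il15 (-1.15) and the chemokine gene Ccl5 (-1.0). Other genes of the list known to respond to interferon-gamma rose, namely Cxcl10 (3.5), Gbp2 (2.96), Nlrc5 (2.62) and Tap1 (1.24), and Psmb8 (-0.12) and Psmb9 (0.17) did not pass the test. Of the same 22 targets, 12 were higher and 1 lower in J2, where 12.2% of all genes tested were called. In K1, 15 were higher and 1 lower, where 27.1% of all genes tested were called. Of 13 inhibitors and co-regulators 6 rose and 3 fell in input, with a median of 0.30, and fewer rose without control animal 2. Socs3 (2.59) and Socs1 (2.51), feedback inhibitors of JAK kinases, and Otud5 (1.0) rose, and the IRF2-binding corepressors Irf2bpl (-1.88) and Irf2bp2 (-0.98) and the ubiquitin ligase adaptor Spop (-0.42) fell. In these pathway lists, differential enrichment by K1 passed the test for Tlr3 (-1.42), Mavs (-1.39), Ticam1 (-1.33), Traf6 (-1.44) and Il10rb (-1.49). Each was recovered less in DKO mice, with and without the animal as a block. They were 1 of 4 sensors, 3 of 14 adaptors and kinases and 1 of 12 receptors and STATs tested, and no target gene or inhibitor passed. Over all genes 5.47% passed, 1.37% higher and 4.1% lower. For J2 it passed for Tlr3 alone, at -2.04 (edgeR adjusted p = 0.0349), against 2.71% of all genes. With the animal as a block the edgeR adjusted p of Tlr3 was 0.0712.

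**Figure D5:**
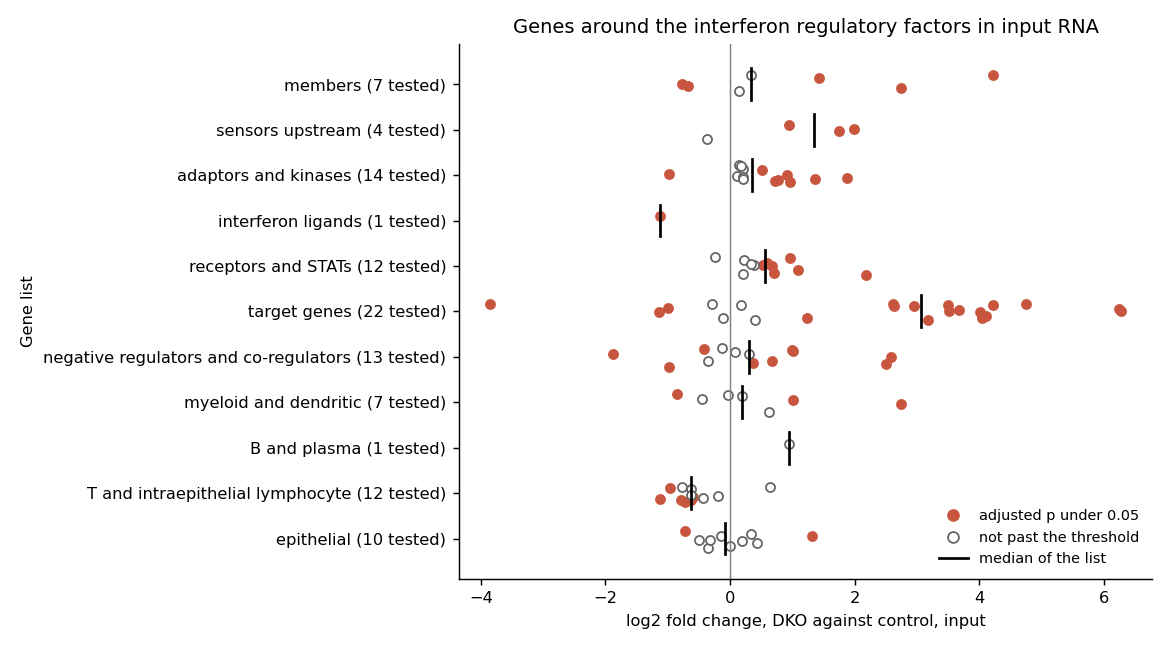
log2 fold change of DKO over control in input for each tested gene of the pathway and cell marker lists, with points as genes and bars as list medians. The target genes have the highest median, 3.07, against 0.34 for the 7 members, in lists chosen with earlier results of these data known.

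Across the 12 libraries, which come from only 4 animals, the levels of Irf5, Irf7 and Irf9 ran together, with a Pearson r of log2 CPM of 0.92 for Irf7 with Irf9, 0.91 for Irf5 with Irf9 and 0.90 for Irf5 with Irf7. Irf1 and Irf8 had an r of 0.75, and Irf3 and Irf5 one of 0.75. These correlations carry genotype, antibody and depth together and are a description. Among 9377 genes compared, the ones most like Irf7 were Tcf23 (0.971), Man2a2 (0.960) and Sesn2 (0.957). Those most like Irf5 were Mboat1 (0.992), Hk2 (0.989) and Socs3 (0.989), and those most like Irf9 were Sidt1 (0.956), Itsn2 (0.952) and H2-T24 (0.950). Irf3 was closest to Trir (0.975), Cars (0.975) and Manf (0.974), and Irf2 to Wsb1 (0.973), Tmem128 (0.961) and Kctd9 (0.959). Irf1 was closest to Iqgap3 (0.879), Sapcd2 (0.869) and Hmgb3 (0.864), and Irf8 to Canx (0.894) and Papss2 (0.876), so the best r of these 2 genes was below that of the other 5.

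The members' transcripts were not alike in base composition. GC content of the longest coding transcript was 56.7% for Irf3, 55.7% for Irf5, 55.3% for Irf7, 55.1% for Irf8, 52.8% for Irf1, 51.9% for Irf9 and 46.8% for Irf2, against a median of 49.1% over 21877 genes. Irf2 was the only member below that median.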

How the data were processed

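Counts per gene were deposited by the authors as 1 table per library, in whole reads, made without regard to strand per the labels' file descriptions. The submitters' processing notes name mm10, GRCm38.p4, FastQC, STAR 2.7.10b, SAMtools 1.17, UMI-tools 1.1.4, HTSeq 2.0.2, DESeq2 1.40.1, edgeR 3.42.2 and deepTools 3.5.2, with no role given. Rows that name no gene were left out, and reads outside genes made up 18.7% to 61.2% of a library. Of 48526 gene IDs, 48144 matched GENCODE M21 without the version. The members and lists were chosen with earlier results of these data known. The main test was edgeR 4.0.16 (R 4.3.3) quasi-likelihood, with TMM, filterByExpr at a count minimum of 10, and Benjamini-Hochberg adjustment over all genes tested at 0.05. Genotypes were compared within 4 libraries. Enrichment and its difference used 8 libraries with 4 group means. CPM of all 12 libraries share 1 TMM scaling, while each fit has its own. Correlations used log2 CPM with a prior count of 2, over genes with a mean of at least 50 counts, and the 3 highest were named for each member. From each list, up to 3 genes that rose and 3 that fell most in input were named, with Cgas, Tbk1, Ikbke, the differentially enriched genes, Cxcl10, Gbp2, Nlrc5, Tap1, Psmb8 and Psmb9 and the myeloid markers named in K1 added after their values were seen. The overlapping neighbours were also added then. Some genes that these rules name are not reported here. A group at or under 3 counts was treated as at the floor.

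Input and pulldown libraries pair by animal, since the labels' file descriptions give both the same animal number. Their deviations from group means correlated at 0.383 to 0.581. J2 and K1 libraries of the same animals correlated at 0.663 in controls and 0.727 in DKO mice. DKO and control animals with the same replicate number are different mice (r = -0.00208 in input), so the main test between genotypes had no block, and a block by replicate number was run only as an alternative. Replicates differed by more than counting noise (chi-square per degree of freedom at least 9.78). Alternatives were DESeq2 1.42.0, no TMM, no filter, a fit of all 12 libraries, thinning to 2220291 counts, a replicate block and leaving out each animal. The code was tested on simulated data. Promoters came from RefSeq tables of GRCm38.p6, and shared sequence was searched with blastn 2.17.0+ at 97% identity over 100 bp.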

Additional observations from a re-analysis of the deposited data

Results flagged for a closer look

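In the main fit, without pairing by animal, the J2 enrichment of Irf3 differed between genotypes by a test of the difference itself. The difference, DKO minus control, was 1.74 on the log2 scale (edgeR adjusted p = 0.0385), with both DKO animals above both control animals. With input and pulldown paired by animal it was again 1.74 but did not pass (edgeR adjusted p = 0.0734). Over the 10 alternatives it ranged from 1.43 to 1.87, with adjusted p from 8.29e-05 to 0.738, and it passed in 5 of them.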

How the results depend on the processing

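In input, Irf7 and Irf9 kept their direction and their call in all 10 alternatives, Irf1 and Irf5 in 9 and Irf8 in 5. In K1, Irf5 did so in all 10. The number of the 7 genes called in input was 3 with all 12 libraries fitted together and 3 after thinning to equal depth (5 in the main test). In J2 it was 4 with all 12 libraries and 0 after thinning (main 2). For J2 against input in controls it was 2 with no filter and 2 after thinning (main 4). For J2 against input in DKO mice it was 4 with DESeq2, 4 with all 12 libraries, 1 without TMM and 0 after thinning (main 2). For the J2 difference it was 0 without TMM, 0 after thinning and 0 with the replicate block (main 1), since the adjusted p of Irf3 was then 0.0791, 0.221 and 0.0734. For K1 against input in DKO mice it was 1 after thinning (main 3), and for the K1 difference 1 with DESeq2 (main 0). Leaving out each animal in turn gave 4 to 5 in input, 0 to 6 in J2, 1 to 5 in K1, 0 to 5 and 0 to 6 for J2 against input in control and DKO mice, 0 to 3 for the J2 difference, 0 to 2 and 1 to 3 for K1 against input in control and DKO mice, and 0 to 1 for the K1 difference. The replicate block, with input and pulldown paired by animal, changed no other call of the 7 genes. The cause of these changes was not tested.

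Directions turned 32 times among 630 values, all of them not called in the main test. DKO over control in J2 became 0.169 for Irf1 and 0.001 for Irf8 after thinning. J2 over input in controls became -0.20 for Irf8 without TMM and -0.013 after thinning. K1 over input in controls became -0.015 (DESeq2) and -0.13 (no TMM) for Irf9, and 0.026 for Irf1 with all 12 libraries. In DKO mice it became -0.29 (no TMM) and -0.086 (thinned) for Irf9. The J2 difference became 1.36 for Irf5 and 0.13 for Irf9 after thinning. The K1 difference became 0.11 for Irf2, 0.11 for Irf8 and 0.066 for Irf9 with DESeq2, 0.012 for Irf2 and 0.004 for Irf8 with no filter, and 0.48 for Irf2, 0.97 for Irf5 and 0.082 for Irf8 after thinning. Leaving out each animal in turn gave these ranges where a direction turned. DKO over control ran from -0.032 to 0.291 for Irf3 in input, and from -0.294 to 0.117 for Irf1 and -0.866 to 0.305 for Irf8 in J2. J2 over input in DKO mice ran from -0.147 to 1.138 for Irf8, and K1 over input from -0.15 to 0.115 for Irf9. The J2 difference ran from -0.132 to 0.874 for Irf2 and -0.196 to 0.954 for Irf8. The K1 difference ran from -0.119 to 0.022 for Irf2, -0.655 to 0.101 for Irf5, -0.42 to 0.223 for Irf8 and -0.234 to 0.007 for Irf9.

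All genes called in input numbered 5421 in the main test, 1675 with all 12 libraries and 1430 after thinning. The count in J2 was 1606, and 2751 with DESeq2, 5984 with all 12 libraries, 4273 with no filter and 466 after thinning. Without TMM the share of higher calls fell from 52.4% to 42.1% in input, from 49.4% to 32.7% in J2 and from 48.6% to 27.4% in K1. Irf5 had 10 to 30 counts in each control library, so the size of its changes between genotypes rests on low counts.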
